A study of Mus musculus with 5 samples.

Results

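Synaptic adhesion molecules and organizers are proteins of the pre- and postsynaptic membrane, or secreted between them, that bind across the cleft and recruit the machinery of the synapse. Of the 55421 genes counted, 48 belong here, taken by name from 15 gene families, with earlier results of these data known. The data are bulk RNA-seq of the whole cerebellum at postnatal day 14, with 3 libraries of Yy1 cKO mice and 2 of controls. The Yy1 cKO mice carried Pcp2 Cre/+ with both copies of Yy1 floxed (Yy1 fx/fx). The controls were littermates with the same Cre and 1 floxed copy (Yy1 fx/+), so both groups carried Cre and at least 1 floxed allele. Pcp2 marks Purkinje cells, whose axons carry the output of the cerebellar cortex, so the Cre acts in a small share of the cells whose RNA was sequenced. YY1 is a zinc finger transcription factor.

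At a central synapse, presynaptic neurexins and receptor phosphatases of the LAR family bind several sets of postsynaptic partners. Neuroligins, LRRTM proteins and secreted cerebellins bind neurexins, while SLITRK, SALM and IL1RAPL proteins bind LAR phosphatases. In the cerebellum the best known case is CBLN1, which granule cells release from their parallel fibres and which binds neurexin at the synapses onto Purkinje cells. C1QL1, released by climbing fibres, has a comparable part with the adhesion receptor BAI3.

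The genes of these proteins were divided in direction, and in 4 of the 15 families within the family. Only in the BAI family (Adgrb1 and Adgrb2) did calls of both directions hold under every alternative analysis given below. Of the 48 members, all of which passed the filter on low counts, 9 rose and 15 fell in Yy1 cKO, called by an adjusted p under 0.05 (edgeR quasi-likelihood test with Benjamini-Hochberg adjustment). These are 24 of 48 members, against 23.4% of all 20388 genes tested. The list was made with earlier results of these data known, so counts of members are description only. By direction, 10.7% of all genes tested were higher and 12.6% lower. The members were more abundant than most genes, with a median of 68.6 CPM (counts scaled to library size with TMM factors) in the controls against 11.8 CPM over all genes tested. Among genes with a mean of at least 10 CPM, 31.3% were called, and 19 of 41 members. The median log2 fold change of the members was 0.01 and that of all genes tested -8.6e-04. The 2 groups of libraries did not overlap in CPM for 35 members, against 52.2% of all genes tested. Where groups of a called gene are said below not to overlap, this describes the values behind the call and is no further support. With scaling by library size alone the members gave 8 higher and 17 lower, and all genes gave 1432 higher and 3369 lower in place of 2185 and 2577.

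**Figure D1:**
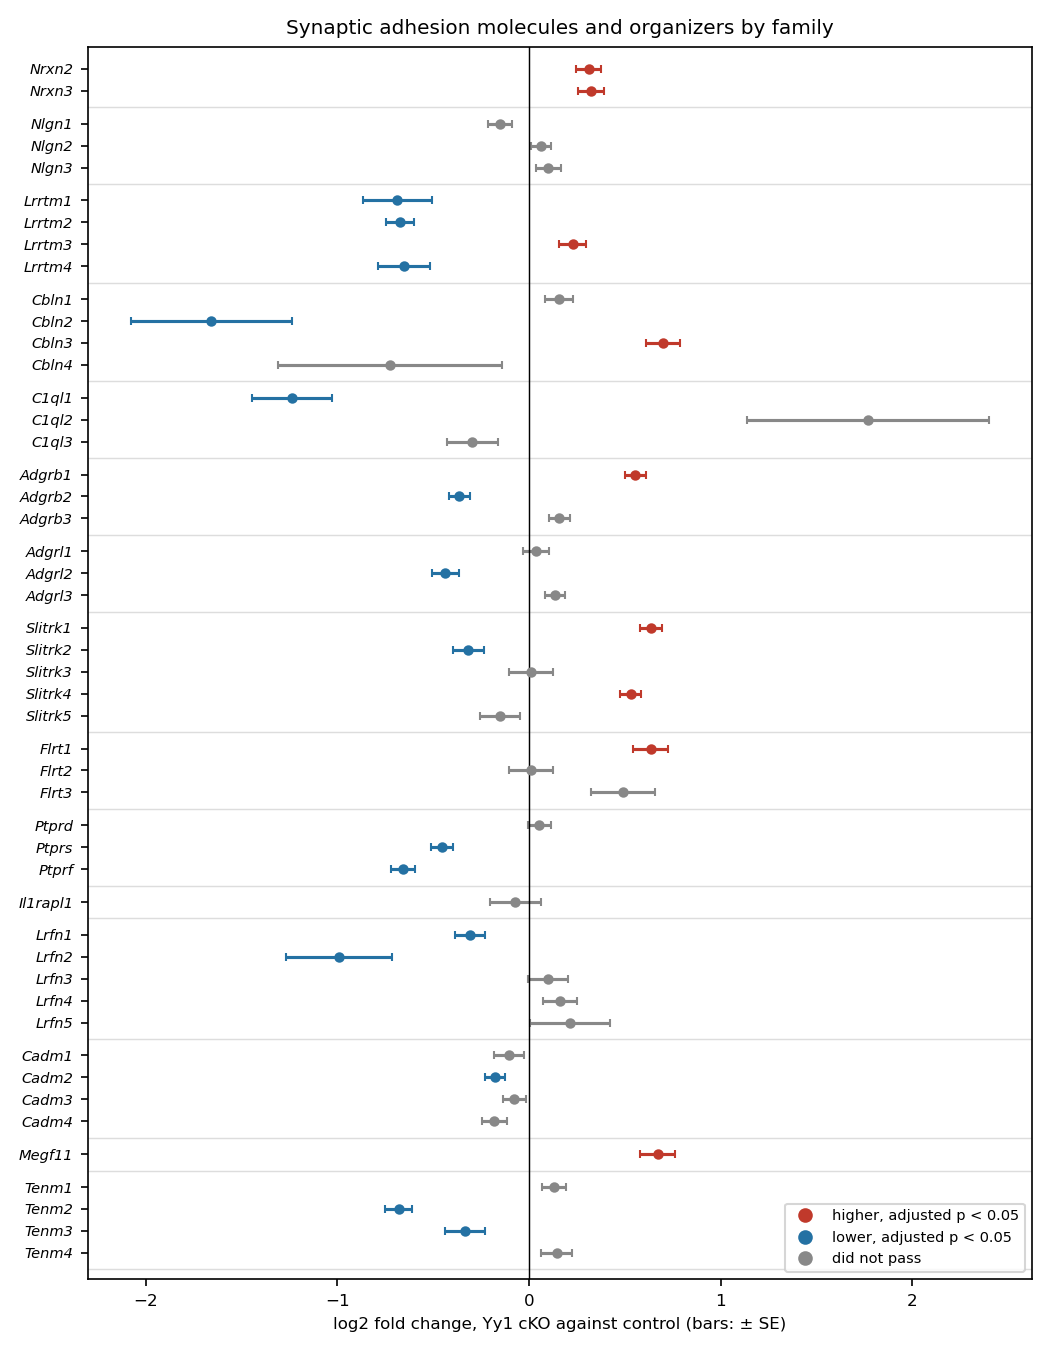
Log2 fold change of each of the 48 members, Yy1 cKO against control, grouped by family from neurexins at the top to teneurins at the bottom. Points are estimates of the edgeR fit, bars are ± 1 SE, and colour shows the 9 members called higher, the 15 called lower and the 24 that did not pass.

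Library totals were 17424860 to 20305705 counts, and sex was mixed, with Xist at 12 and 6 counts in control 1 and Yy1 cKO 3 and at 1635 to 2460 CPM in the other 3 libraries. Yy1 itself was at 74.6 and 73.7 CPM in the controls and 73.4, 81.7 and 75.8 CPM in Yy1 cKO (a log2 fold change of 0.05 ± 0.065, SE, adjusted p = 0.61), a value that includes the many cells without Cre. Defining markers of the cerebellum were present (Calb1 of Purkinje cells at 611 to 734 CPM, Gabra6 of granule neurons at 433 to 638 CPM), and Hoxb3 of the hindbrain outside it had 0 counts in all 5 libraries. Yy1 cKO 3 stood apart from Yy1 cKO 1 and 2 on the second principal component, which held 17.5% of the variance of log2 CPM. No label says which animal gave which replicate. Ddx3y, on the Y chromosome, was at 1175 and 0 counts in controls 1 and 2, so the controls came from animals of different sex. It was at 0, 0 and 1471 counts in Yy1 cKO 1, 2 and 3, so sex does not tell Yy1 cKO 1 and 2 apart. The p-values rest on the spread among the 5 libraries, which may be technical in part. The strand setting of the counting is not given in the sources used here, and 15 members share exonic bases with a gene on the opposite strand, Nrxn2, Nrxn3, Lrrtm2, Lrrtm4, Adgrl2, Lrfn2, Cadm2 and Tenm3 among those called. Reads there may count for either gene, so these values are uncertain to that extent, among these called members most of all for Lrrtm4, which shares 1543 bases.

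Markers of several cell types moved with the group and stand beside every result that follows. Of 12 markers of dividing granule cell precursors 9 fell and 0 rose, and their summed level was 224 and 261 CPM in the controls against 55.8 to 61.3 CPM in Yy1 cKO. Atoh1, the defining factor of these precursors, was at 0.860 and 1.06 CPM in the controls against 0, 0.0547 and 0 CPM in Yy1 cKO. Of 12 markers of immature granule neurons 11 fell, with sums of 2914 and 2989 CPM against 1465 to 1657 CPM. Of 10 markers of mature granule neurons 8 rose and 1 fell, with sums of 4097 and 4119 CPM against 5132 to 5849 CPM. Of 10 interneuron markers (molecular layer and Golgi cells) 6 rose and 1 fell (sums of 397 and 399 against 577 to 644 CPM). Of 9 oligodendrocyte precursor markers 6 fell and 0 rose (406 and 417 against 278 to 322 CPM). The 11 markers of astrocytes and Bergmann glia went both ways, with 3 higher (Slc1a3, Slc1a2 and S100b) and 2 lower (Aqp4 and Fabp7). Their sums were 3458 and 3611 CPM in the controls against 3684 to 4378 CPM in Yy1 cKO. Of 12 Purkinje cell markers 2 rose and 0 fell (4596 and 4945 against 5600.4 to 6491 CPM), and without Itpr1, a calcium channel gene at 1548 and 1524 CPM against 2697, 2806 and 2256 CPM, the sums of the 2 groups overlapped (3048 and 3421 against 3345 to 3685 CPM). Of 8 endothelial and mural markers 4 fell and 1 rose (332 and 377 against 239.7 to 276 CPM). Of 6 fibroblast markers 3 fell and 0 rose (216 and 287 against 112 to 159 CPM). Of 6 markers of nuclear neurons and unipolar brush cells 1 fell and 1 rose (80.6 and 86.9 against 46.6 to 64.8 CPM). The gene that fell, Slc17a6, stood at a log2 fold change of -1.64, and the gene that rose, Spp1, at 1.503. Eomes, a defining marker of this list, stood at -0.015 and did not pass (adjusted p = 0.96). In bulk samples fewer cells of a type and less RNA per cell cannot be told apart, and the part of these cell types in the results on adhesion genes was not tested.

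The presynaptic neurexins measured here both rose. Nrxn2 (chromosome 19, 6418731 to 6544169, GRCm38) was at 537 and 543 CPM in the controls against 681, 689 and 639.7 CPM in Yy1 cKO, a log2 fold change of 0.31 ± 0.063 (SE, adjusted p = 0.0064). Nrxn3 went from 377 and 358 CPM to 481, 468 and 431 CPM (0.32 ± 0.068, adjusted p = 0.0076). In both genes every Yy1 cKO library lay above both controls, and their ratio to each other hardly moved: Nrxn2 held 57.3% ± 1.1 (SD, n = 2) of their summed level per kb of exon in the controls and 57.1% ± 0.62 (SD, n = 3) in Yy1 cKO. Both calls needed both controls. Without control 1 the adjusted p was 0.078 for Nrxn2 and 0.051 for Nrxn3, and without control 2 it was 0.070 and 0.11. Gene counts sum the long alpha and short beta forms of neurexins, which start at different promoters.

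The neuroligins, postsynaptic partners of neurexins, had 0 of 3 members called. Nlgn2, the form of inhibitory synapses, was the most abundant of them, with 279 and 277 CPM in the controls and 288, 287 and 297 CPM in Yy1 cKO (a log2 fold change of 0.06 ± 0.054, adjusted p = 0.46), and it held 80.4 to 81.9% of the neuroligin level per kb in every library. Nlgn1, of excitatory synapses, stood at -0.15 ± 0.062 (adjusted p = 0.12), and it passed when libraries were scaled by their size alone (-0.23, adjusted p = 0.030). Nlgn3 stood at 0.10 ± 0.066 (adjusted p = 0.31). Exons of Nlgn3 share 3823 bases with an overlapping transcript on the same strand, so its own count is uncertain.

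The LRRTM proteins, leucine-rich repeat ligands of neurexins at excitatory synapses, split by member. Lrrtm2 fell from 71.4 and 76.6 CPM in the controls to 43.3, 47.5 and 48.5 CPM in Yy1 cKO, a log2 fold change of -0.67 ± 0.071 (adjusted p = 1.7e-04). Lrrtm1 fell from 6.82 and 6.47 to 4.83, 3.45 and 4.08 CPM (-0.69 ± 0.18, adjusted p = 0.022). Lrrtm4, whose protein also binds heparan sulfate proteoglycans, fell from 10.4 and 10.3 to 6.95, 5.75 and 7.09 CPM (-0.65 ± 0.14, adjusted p = 0.0079). These 3 had all Yy1 cKO libraries below both controls. Lrrtm3 went the other way, from 133 and 136 CPM to 163, 165 and 144 CPM (0.23 ± 0.069, adjusted p = 0.040), with Yy1 cKO 3 nearest the controls. It was the most abundant of the family per kb, and its share rose from 66.2% ± 0.32 (SD, n = 2) to 78.4% ± 1.9 (SD, n = 3) while that of Lrrtm2 went from 25.7% ± 0.71 to 16.4% ± 1.6. The fall of Lrrtm2 was called under every alternative. The calls of Lrrtm1 and Lrrtm4 were lost without control 1 (adjusted p = 0.14 and 0.069) and without control 2 (adjusted p = 0.10 and 0.065), and that of Lrrtm1 also without Yy1 cKO 2 (adjusted p = 0.069). The rise of Lrrtm3 was not called without control 1, without control 2, without Yy1 cKO 1 and without Yy1 cKO 2 (adjusted p = 0.24, 0.17, 0.13 and 0.12), after scaling to library totals only (adjusted p = 0.14), or by DESeq2 and limma-voom (adjusted p = 0.056 and 0.058).

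Among the cerebellins, secreted proteins that bind neurexins, Cbln3 (chromosome 14, 55878913 to 55884392) rose most. It was at 599 and 606 CPM in the controls against 1033, 1036 and 862 CPM in Yy1 cKO, a 1.62-fold rise (log2 fold change 0.70 ± 0.088, adjusted p = 4.8e-04). CBLN3 is made by granule cells and is secreted only in complex with CBLN1. Cbln1 itself was at 482 and 503 CPM in the controls against 569, 578 and 500.5 CPM in Yy1 cKO, and its change of 0.16 ± 0.075 did not pass (adjusted p = 0.17), although it did without Yy1 cKO 3 (0.22, adjusted p = 0.0033). The highest control and the lowest Yy1 cKO library of Cbln1 overlapped. In every control library the level per kb of Cbln1 was above that of Cbln3, and in every Yy1 cKO library it was below: Cbln3 held 42.9 to 43.6% of the cerebellin level in the controls and 51.8 to 53.1% in Yy1 cKO. This order depends on the annotated exon lengths, 4866 bases for Cbln3 and 3037 for Cbln1. In CPM without that division, Cbln3 was above Cbln1 in every library of both groups. Beside this rise stand the 8 of 10 mature granule neuron markers that rose, and their part in it was not tested.

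The other 2 cerebellins were near the limit of detection. Cbln2 had 17 and 16 counts in the controls against 6, 5 and 5 in Yy1 cKO (log2 fold change -1.66 ± 0.42, adjusted p = 0.019). This call was lost without control 1, without control 2 and by DESeq2 (adjusted p = 0.13, 0.13 and 0.087). Cbln4 had 20 and 14 counts against 20, 9 and 3 (-0.72 ± 0.58, adjusted p = 0.43), with overlapping groups.

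Of the C1q-like proteins, C1ql1 (chromosome 11, 102939264 to 102946688) fell. Its counts were 114 and 110 in the controls against 40, 49 and 58 in Yy1 cKO, or 6.13 and 6.13 against 2.01, 2.68 and 3.11 CPM (log2 fold change -1.24 ± 0.21, adjusted p = 0.0023). C1ql1 is known from climbing fibres, whose cell bodies lie in the inferior olive outside the cerebellum, and from oligodendrocyte precursors. The markers of those precursors fell beside it in 6 of 9 cases, Pdgfra from 32.3 and 38.3 CPM to 24.2, 25.1 and 25.6 CPM, and their part in the fall of C1ql1 was not tested. C1ql3 was at 12.3 and 14.7 CPM against 10.7, 9.96 and 12.4 CPM, with overlapping groups (-0.29 ± 0.13, adjusted p = 0.15), and passed without Yy1 cKO 3 (adjusted p = 0.038). C1ql2, known from mossy fibres of the hippocampus, had 6 and 2 counts in the controls against 8, 17 and 18 in Yy1 cKO, and its log2 fold change of 1.77 ± 0.63 did not pass (adjusted p = 0.072). It passed with no filter on low counts (adjusted p = 0.022) and without Yy1 cKO 1 (adjusted p = 0.040).

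The adhesion receptors of the BAI family, Adgrb1 to Adgrb3, moved apart. Adgrb1 (BAI1, chromosome 15, 74516195 to 74589465), a receptor of dendritic spines that also takes part in the uptake of dying cells, rose from 137 and 131 CPM to 194, 204 and 194 CPM, or 1.47-fold (log2 fold change 0.55 ± 0.056, adjusted p = 1.2e-04). Adgrb2 (BAI2, chromosome 4, 129984870 to 130022633) fell from 236 and 253 CPM to 186, 190.4 and 194 CPM (-0.36 ± 0.056, adjusted p = 0.0014). Both were called under every alternative, and in neither did the groups overlap. Adgrb3, the receptor of C1q-like proteins, stood at 231 and 223 CPM in the controls and 257, 247 and 257 CPM in Yy1 cKO (0.16 ± 0.055, adjusted p = 0.067), and it passed without Yy1 cKO 3 (adjusted p = 0.025). The log2 ratio of Adgrb1 to Adgrb2 per kb was -0.93 and -1.10 in the controls against -0.09, -0.05 and -0.15 in Yy1 cKO, so the receptors went from unequal to nearly equal levels.

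Latrophilins are adhesion receptors that bind teneurins and FLRT proteins across the cleft. Adgrl1, the most abundant with 78.1 to 80.1% of the family's level per kb in each library, was at 544 and 528 CPM in the controls and 542, 581 and 527 CPM in Yy1 cKO (a log2 fold change of 0.04 ± 0.066, adjusted p = 0.74). Adgrl2 fell from 54.8 and 55.5 CPM to 41.4, 38.0 and 42.7 CPM (-0.44 ± 0.071, adjusted p = 0.0020) and was called under every alternative. Adgrl3 stood at 0.14 ± 0.053 (adjusted p = 0.096), and passed without Yy1 cKO 3 (adjusted p = 0.044).

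Their ligands were likewise divided. Of the teneurins, large transmembrane proteins that also guide wiring, Tenm2 (chromosome 11, 36006656 to 37235964) fell from 60.4 and 54.1 CPM to 36.5, 35.2 and 35.5 CPM, a log2 fold change of -0.68 ± 0.072 (adjusted p = 1.7e-04). Tenm3 fell from 28.0 and 31.3 CPM to 23.3, 21.6 and 25.8 CPM (-0.33 ± 0.10, adjusted p = 0.045). The fall of Tenm2 was called under every alternative, while that of Tenm3 was lost without control 1, without control 2, without Yy1 cKO 1 and without Yy1 cKO 2 (adjusted p = 0.090, 0.29, 0.12 and 0.13) and by DESeq2 (adjusted p = 0.072). Tenm1, the most abundant teneurin, was at 339 and 325 CPM against 370.4, 378 and 345 CPM (0.13 ± 0.063, adjusted p = 0.17), and Tenm4 stood at 0.15 ± 0.081 (adjusted p = 0.24). Without Yy1 cKO 3 both passed (adjusted p = 0.013 and 0.026). Tenm1 lies on the X chromosome, and with Xist as a covariate its change was 0.13 (adjusted p = 0.20).

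Of the FLRT proteins, leucine-rich repeat ligands of latrophilins and of UNC5 guidance receptors, Flrt1 rose from 29.6 and 27.0 CPM to 46.3, 45.6 and 40.1 CPM (log2 fold change 0.64 ± 0.090, adjusted p = 9.1e-04). Flrt3, the most abundant of them per kb in the controls, was at 23.0 and 25.7 CPM in the controls against 35.9, 39.9 and 26.6 CPM in Yy1 cKO (0.49 ± 0.17, adjusted p = 0.078). Yy1 cKO 3 was the low library of Flrt3, and without it the change was 0.64 (adjusted p = 2.8e-05). It also passed with no filter on low counts, by DESeq2 and with Xist as a covariate (adjusted p = 1.9e-05, 0.031 and 0.018), and with the replicate number as a block. Flrt2 stood at 0.01 ± 0.12 (adjusted p = 0.96).

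The LAR receptor phosphatases, the other hub of the presynaptic side, fell in 2 of 3 cases. Ptprs (PTPsigma, chromosome 17, 56412426 to 56476483) fell from 524 and 513 CPM to 376, 375 and 386 CPM, a log2 fold change of -0.45 ± 0.057 (adjusted p = 4.5e-04). Ptprf (LAR) fell from 81.7 and 85.1 CPM to 51.1, 55.7 and 51.9 CPM (-0.66 ± 0.064, adjusted p = 9.8e-05). Ptprd (PTPdelta) was at 347 and 345 CPM in the controls against 377, 354 and 347 CPM in Yy1 cKO (0.05 ± 0.061, adjusted p = 0.58). Both falls were called under every alternative, and the groups did not overlap in either. The share of Ptprd in the phosphatase level per kb was 25.7 and 25.8% in the controls and 32.6 to 35.0% in Yy1 cKO, while Ptprs stayed the most abundant of the 3.

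The SLITRK proteins, leucine-rich repeat ligands of LAR phosphatases, held members that rose and 1 that fell. Slitrk1 (chromosome 14, 108908800 to 108914158) rose from 77.0 and 79.7 CPM to 125, 123 and 117 CPM, or 1.56-fold (log2 fold change 0.64 ± 0.059, adjusted p = 7.6e-05). Slitrk4, on the X chromosome, rose from 81.7 and 83.5 CPM to 118, 120.2 and 119.9 CPM (0.53 ± 0.055, adjusted p = 1.4e-04), and with Xist as a covariate the change was 0.53 (adjusted p = 3.7e-04). Slitrk2, its neighbour on that chromosome, fell from 63.1 and 63.9 CPM to 49.8, 46.8 and 56.3 CPM (-0.32 ± 0.081, adjusted p = 0.020). The 2 rises were called under every alternative. The fall of Slitrk2 was lost without control 1, without control 2, without Yy1 cKO 1 and without Yy1 cKO 2 (adjusted p = 0.12, 0.14, 0.079 and 0.072) and was called with Xist as a covariate (adjusted p = 0.022). Slitrk3, of inhibitory synapses, stood at 0.01 ± 0.11 (adjusted p = 0.96) and Slitrk5 at -0.15 ± 0.11 (adjusted p = 0.36). The log2 ratio of Slitrk1 to Slitrk2 per kb went from 0.88 and 0.91 in the controls to 1.92, 1.99 and 1.65 in Yy1 cKO.

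Promoter sequences from RefSeq (GRCm38.p6) were matched by symbol to 34 of the 48 members, in 43 windows of 300 bases that run from 250 before to 50 after each start. A RefSeq start can lie inside the gene as GENCODE draws it: 31 of the 43 starts were within 1000 bases of the gene's 5′ end, and the others further in. A core of the YY1 motif, AANATGGC on either strand, was in 0 of the 43 windows and in 6.05% of all 32851 promoter windows of that length, which says only that these letters are not in the windows. The cAMP response element TGACGTCA, which reads the same on both strands, was in 3 of the 43 windows and in 1.79% of all windows. Those 3 belong to Tenm3, Ptprs and Slitrk2, which fell, and the same motif was in 0 of 6 windows of members that rose and 0 of 24 of members that did not pass. The E-box CAGATG was in 6 of 43 windows (17.2% of all) and TATAAA in 4 of 43 (13.6% of all). TATAAA was likewise in 0 of the 6 windows of members that rose, which come from only 4 genes. Of the 3 genes with the cAMP response element, only Ptprs kept its call under every alternative. This element was picked for display after its matches were seen, and a link with direction was not tested. Its 3 matches are shown with 10 bases on either side, 5′ to 3′ on the strand of the gene, with the element in capitals. Only in Ptprs is it at the 5′ end of the gene, 5 bases after the start (chr17:56476458-56476485, minus strand). In Tenm3 it begins 63 bases before an internal start, 169261 bases inside the gene (chr8:48674736-48674763, minus strand). In Slitrk2 it begins 197 bases before a start 3841 bases inside the gene (chrX:66652952-66652979, plus strand).
Tenm3: atgctttcgcTGACGTCAtgccaacctt
Ptprs: gcggaaggggTGACGTCAccggctgggg
Slitrk2: ctctcctccgTGACGTCAcccctagtcc

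The promoters of members that moved together differed widely in composition. Member windows held a median of 15 CpG dinucleotides against 7 over all windows, and their median GC content was 59.0% against 52.7%. The 13 windows of members that fell (10 genes) had a median of 10 CpG and the 6 of members that rose (4 genes) 7.5. The 24 windows of members not called had 18.5. Over the 31 windows near the 5′ end of the gene the medians were 12, 9 and 22, from only 8, 3 and 20 windows. The 250 bases before the start are shown for Slitrk1, which rose, and for Slitrk2, Adgrb2 and Lrrtm4, which fell, with every CpG in capitals. All 4 starts lie within 1000 bases of the gene's 5′ end. They lie at chr14:108914240-108914489 (Slitrk1, minus strand), chrX:66649068-66649317 (Slitrk2, plus strand, not the start above), chr4:129984620-129984869 (Adgrb2, plus strand) and chr6:80018627-80018876 (Lrrtm4, plus strand). The stretch of Adgrb2 holds 35 CpG and that of Lrrtm4 holds 3, and both genes fell, while Slitrk1 and Slitrk2, of opposite direction, hold 9 and 6. Adgrb2 holds the most of the members that fell. Counts also depend on the start used: the stretch before another start holds 8 CpG in Lrrtm4 and 15 in Slitrk2. The 4 stretches are examples, and a link of CpG content with direction was not tested.
Slitrk1: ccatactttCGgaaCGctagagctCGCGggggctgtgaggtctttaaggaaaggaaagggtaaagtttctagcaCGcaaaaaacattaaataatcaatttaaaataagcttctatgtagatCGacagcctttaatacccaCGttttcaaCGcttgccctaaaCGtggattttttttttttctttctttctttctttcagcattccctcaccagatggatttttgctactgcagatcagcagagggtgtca
Slitrk2: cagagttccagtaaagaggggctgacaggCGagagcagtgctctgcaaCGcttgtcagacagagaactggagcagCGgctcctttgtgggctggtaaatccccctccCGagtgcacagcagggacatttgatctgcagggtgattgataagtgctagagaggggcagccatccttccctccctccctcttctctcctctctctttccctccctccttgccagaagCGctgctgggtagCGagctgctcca
Adgrb2: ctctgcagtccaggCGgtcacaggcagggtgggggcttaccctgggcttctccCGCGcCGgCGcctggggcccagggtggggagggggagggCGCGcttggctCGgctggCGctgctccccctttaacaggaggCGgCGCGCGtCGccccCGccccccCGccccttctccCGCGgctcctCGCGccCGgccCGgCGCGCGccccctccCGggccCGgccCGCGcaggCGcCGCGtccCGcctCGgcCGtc
Lrrtm4: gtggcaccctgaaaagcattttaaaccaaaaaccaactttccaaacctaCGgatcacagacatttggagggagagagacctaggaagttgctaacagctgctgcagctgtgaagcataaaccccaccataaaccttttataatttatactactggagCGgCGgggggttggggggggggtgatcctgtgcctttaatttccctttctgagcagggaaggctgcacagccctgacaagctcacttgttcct

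Further ligands of LAR phosphatases were lower or did not pass. The SALM proteins are encoded by Lrfn1 to Lrfn5, and some of them also bind the postsynaptic scaffold PSD-95. Lrfn1 fell from 53.5 and 51.4 CPM to 42.4, 45.4 and 39.3 CPM (log2 fold change -0.31 ± 0.076, adjusted p = 0.017). Lrfn2 fell from 46 and 50 counts to 32, 25 and 18 counts (-0.99 ± 0.28, adjusted p = 0.028). Neither call held without control 1 (adjusted p = 0.14 and 0.098) or without control 2 (adjusted p = 0.099 and 0.16). That of Lrfn1 was also lost without Yy1 cKO 1 (adjusted p = 0.064), and that of Lrfn2 without Yy1 cKO 2 and by DESeq2 (adjusted p = 0.068 for both). Lrfn3, Lrfn4 and Lrfn5 stood at 0.10, 0.16 and 0.21 and did not pass (adjusted p = 0.56, 0.22 and 0.52), and Lrfn5 passed without Yy1 cKO 3 (adjusted p = 0.043). Il1rapl1, on the X chromosome, was at 35.4 and 37.4 CPM against 41.6, 32.4 and 30.0 CPM, with overlapping groups (-0.07 ± 0.13, adjusted p = 0.76).

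The SynCAM proteins, immunoglobulin adhesion molecules that bind each other across the cleft, had 1 of 4 members called. Cadm3, the most abundant of them, was at 1141 and 1111 CPM in the controls against 1065, 1085 and 1056 CPM in Yy1 cKO (a log2 fold change of -0.08 ± 0.062, adjusted p = 0.43). Cadm2 was that member and fell from 234 and 229.6 CPM to 209, 203 and 202 CPM (-0.18 ± 0.052, adjusted p = 0.035). This call was lost without control 1, without control 2, without Yy1 cKO 1 and without Yy1 cKO 2 (adjusted p = 0.22, 0.17, 0.080 and 0.088), by DESeq2 (adjusted p = 0.057) and with Xist as a covariate (adjusted p = 0.051). Cadm4, also a molecule of myelinating glia, stood at -0.18 ± 0.066 (adjusted p = 0.077), and it passed without Yy1 cKO 3, after scaling to library totals only, with no filter and with Xist as a covariate (adjusted p = 0.049, 0.015, 0.043 and 0.034). Cadm1 stood at -0.10 ± 0.079 (adjusted p = 0.40) and passed only with the replicate number as a block (adjusted p = 0.033).

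Megf11 (chromosome 9, 64385626 to 64709205), an EGF-repeat membrane protein known from the spacing of retinal neurons, rose from 159 and 171 CPM to 274, 283 and 230.3 CPM. The rise was 1.59-fold (log2 fold change 0.67 ± 0.090, adjusted p = 0.0010) and was called under every alternative.

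**Figure D2:**
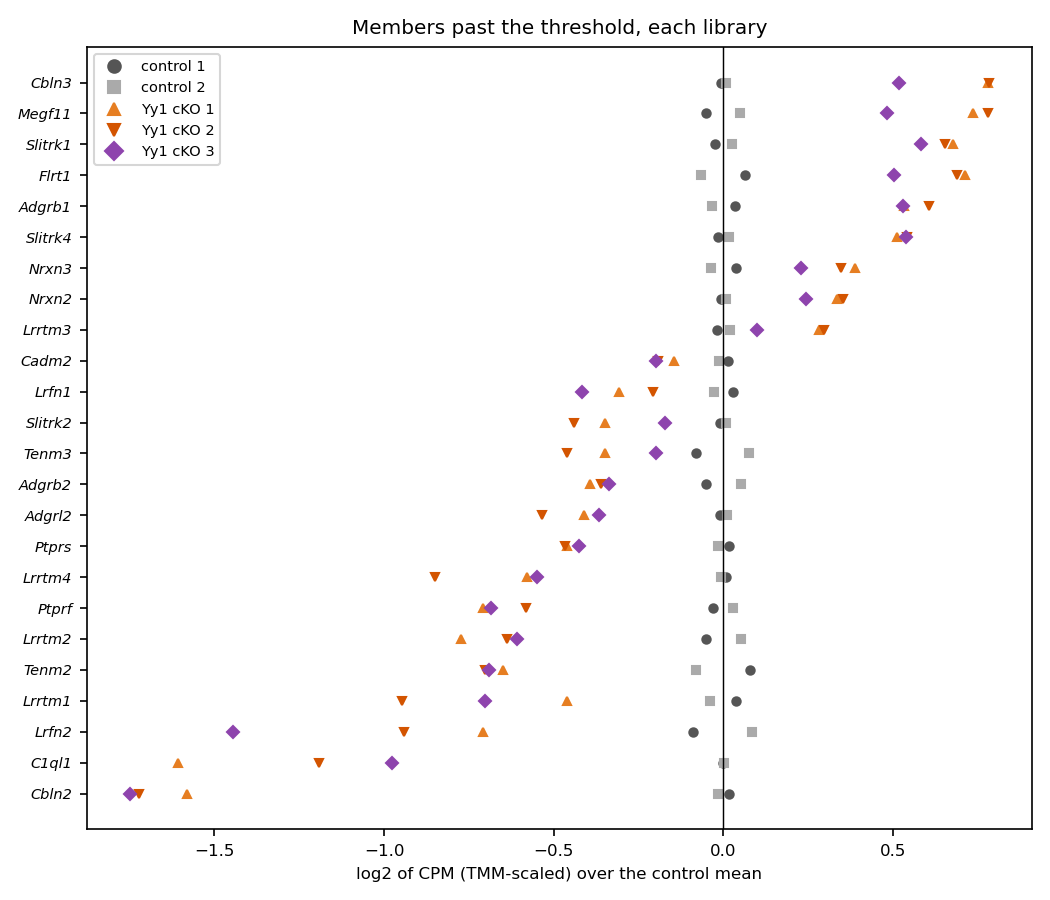
Level of the 24 called members in each of the 5 libraries, as log2 of CPM over the mean of the 2 controls, ordered by fold change from Cbln2 at the bottom to Cbln3 at the top. In all 24 the Yy1 cKO libraries lie on 1 side of both controls, as in 52.2% of all genes tested. This adds no support to the calls, which were made from the same values. Yy1 cKO 3 (diamond) is the Yy1 cKO library nearest the controls in 8 of the 9 members that rose.

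Across the called members, 13 were called under every alternative that tested them, Lrrtm2, Cbln3, C1ql1, Adgrb1, Adgrb2, Adgrl2, Slitrk1, Slitrk4, Flrt1, Ptprs, Ptprf, Megf11 and Tenm2. Without control 1 or control 2 these were the ones still called, 6 higher and 7 lower in each case. The libraries within Yy1 cKO were not alike: Yy1 cKO 3 was nearest the controls in 8 of 9 members that rose and 8 of 15 that fell. Without it 16 members were higher and 17 lower, and all 24 called members were still called. Of the 24 members, 14 changed by at least 0.5 on the log2 scale, and the largest fold among the 13 was that of C1ql1.

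Levels per kb of exon spanned more than 3 orders of magnitude in the plot of all members. In the controls the highest were Cbln1 (162 CPM per kb), Cadm3 (155), Cbln3 (124), Cadm4 (100.2) and Adgrl1 (62.4), and in Yy1 cKO Cbln3 (201), Cbln1 (181) and Cadm3 (147). The lowest in the controls were Cbln4 (0.320 CPM per kb), Cbln2 (0.312) and C1ql2 (0.108), the only members below 1 CPM in both groups.

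**Figure D3:**
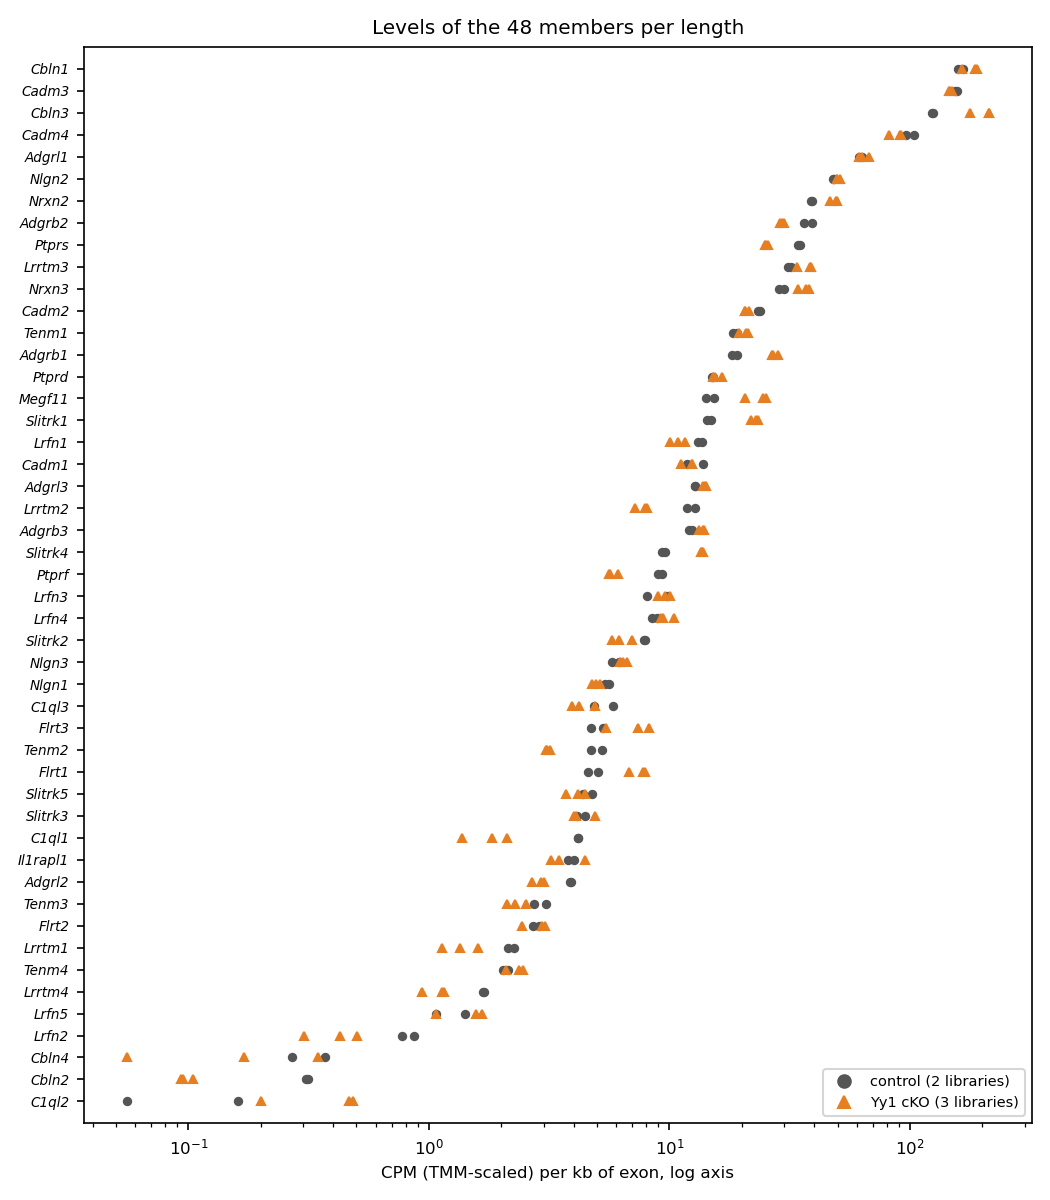
Level of each member in each library, in TMM-scaled CPM per kb of exon on a log axis, ordered by the control mean (circles, 2 control libraries; triangles, 3 Yy1 cKO libraries). Cbln1, Cadm3 and Cbln3 are the 3 highest in both groups, and Cbln2, Cbln4 and C1ql2 the 3 lowest.

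**Figure D4:**
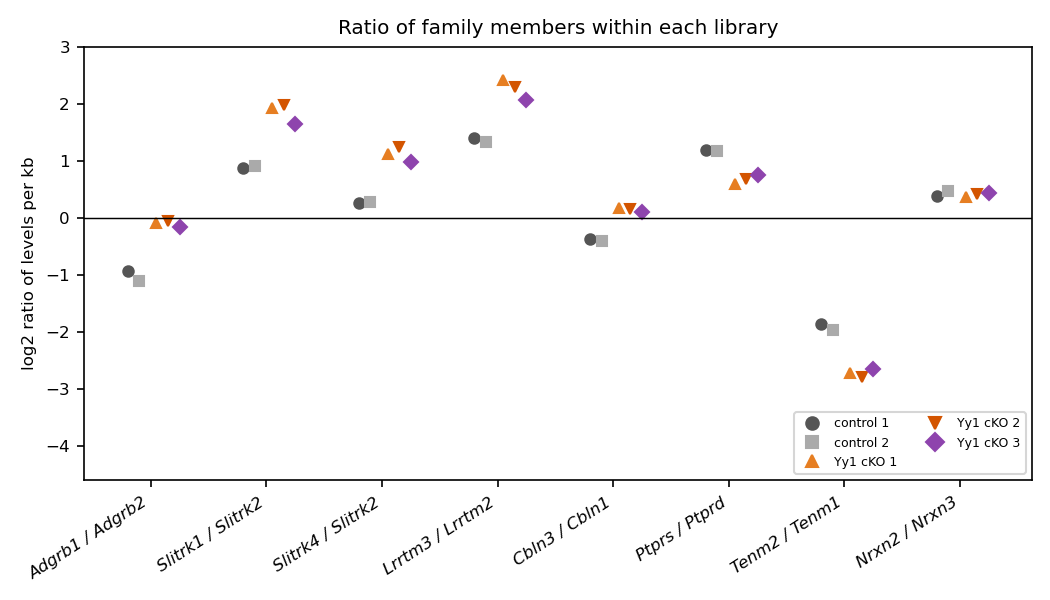
Log2 ratio of the levels per kb of 2 members of 1 family, within each library, for 8 pairs. The groups do not overlap for the first 7 pairs, such as Adgrb1 to Adgrb2 (-0.93 and -1.10 in the controls, -0.09, -0.05 and -0.15 in Yy1 cKO), and overlap for Nrxn2 to Nrxn3.

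Within a library such ratios do not depend on how libraries are scaled. The mean log2 ratio rose by 0.92 for Adgrb1 over Adgrb2, by 0.96 for Slitrk1 over Slitrk2, by 0.85 for Slitrk4 over Slitrk2, by 0.90 for Lrrtm3 over Lrrtm2 and by 0.54 for Cbln3 over Cbln1. It fell by 0.51 for Ptprs over Ptprd and by 0.81 for Tenm2 over Tenm1. For Nrxn2 over Nrxn3 it differed by -0.01. These pairs were picked after their values were seen and were not tested. Of the 15 families, 4 (LRRTM proteins, cerebellins, BAI receptors and SLITRK proteins) held called members of both directions, and 2 (neuroligins and IL1RAPL1) held none. Only the BAI receptors kept calls of both directions under every alternative, since those of Lrrtm3, Cbln2 and Slitrk2 were each lost in some.

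Other genes of the same pathway also moved both ways. Of 34 binding partners 10 rose and 6 fell, with a median log2 fold change of -4.5e-03. Of 21 scaffolds 7 rose and 4 fell, with a median of 0.11. Over all genes tested 10.7% rose and 12.6% fell, and 31.3% were called among genes with a mean of at least 10 CPM. Both lists were chosen with earlier results of these data known, so these counts are description only. Ntrk3 (TrkC), a neurotrophin receptor and ligand of PTPsigma, rose from 342 and 333 CPM to 516, 569 and 474 CPM (0.62 ± 0.081, adjusted p = 5.4e-04). Lrrc4, a netrin-G ligand, rose by 0.50 ± 0.061 and Rtn4r, the Nogo receptor that also binds BAI1, by 0.65 ± 0.086.

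Of the 4 UNC5 receptors, which FLRT proteins bind, 3 fell and 1 rose. Unc5c fell from 452 and 437 CPM to 281, 266 and 304 CPM (log2 fold change -0.65 ± 0.068, adjusted p = 1.6e-04), and Unc5d from 29.1 and 23.5 CPM to 11.9, 12.6 and 8.81 CPM (-1.25 ± 0.16, adjusted p = 7.4e-04). Unc5b fell by 0.24 ± 0.056 (adjusted p = 0.014), while Unc5a rose from 22.5 and 24.3 CPM to 33.7, 32.5 and 29.1 CPM (0.44 ± 0.097, adjusted p = 0.0094). Leaving out control 1 ended both calls (adjusted p = 0.13 and 0.094), and that of Unc5b was also lost without control 2 (adjusted p = 0.10). Mdga1, which blocks neuroligins from binding neurexins, fell by 0.76 ± 0.092 (adjusted p = 3.7e-04). Grik2, a kainate receptor subunit that C1q-like proteins bind, fell by 0.25 ± 0.057 (adjusted p = 0.011). Without control 1 or control 2 the call of Grik2 was lost (adjusted p = 0.061 and 0.14), and the other 10 partner and scaffold genes named here for the smallest p kept theirs under every alternative.

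Scaffold genes moved in both directions. Cask, which binds the tail of neurexins, fell from 170.0 and 165 CPM to 126, 123 and 115 CPM (log2 fold change -0.46 ± 0.058, adjusted p = 4.6e-04), and Lin7c, its partner, fell by 0.46 ± 0.054. Dlg1 (SAP97) rose by 0.54 ± 0.058 and Dlg4 (PSD-95), which holds neuroligins at excitatory synapses, rose from 293 and 303 CPM to 383, 397 and 386 CPM (0.38 ± 0.057, adjusted p = 0.0012). The groups did not overlap in any of these 4 genes. Within the same families others went the opposite way. Lin7a rose by 0.27 ± 0.057 (adjusted p = 0.0082) and Dlg3 fell by 0.24 ± 0.066 (adjusted p = 0.030). Ppfia1 and Ppfia4, liprins that bind LAR phosphatases, rose by 0.20 and 0.25 (adjusted p = 0.027 and 0.034), and Magi1, a scaffold with PDZ domains, fell by 0.22 (adjusted p = 0.024). Without control 1 none of these 5 was called (adjusted p = 0.13 to 0.24). All but Lin7a also lost the call without control 2 (adjusted p = 0.10 to 0.18) and without Yy1 cKO 1 (adjusted p = 0.062 to 0.11), and Ppfia1, Ppfia4 and Magi1 without Yy1 cKO 2 (adjusted p = 0.073 to 0.11). Unc5a, Unc5b and these 5 were named after their values were seen.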

How the data were processed

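RNA of whole mouse cerebella was ribosome-depleted and made into strand-specific libraries, 5 of them here, per the labels' protocols. The build was GRCm38 and the tools were DESeq2 1.26.0, featureCounts, STAR 2.7.1a, Trimmomatic 0.39 and FastQC 0.11.8, per the submitters' processing notes. How they were run, with which strand setting and in which order, is not given in the sources used here. The authors deposited a table of raw read counts for 55421 genes, and a second table with a normalized signal for 24859 genes. The raw count over that signal, read from 1 gene per library, gave factors of 0.969 to 1.07, close to DESeq2 size factors of the raw counts. Whether 1 factor per library holds for every gene was not tested. Library totals were 17424860 to 20305705 counts. Gene symbols, positions and exon lengths were taken from GENCODE M21 (GRCm38). By identifier, 54673 genes matched with their version, 567 without it, and 181 had no match.

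Groups came from the sample titles. Raw counts were tested with the quasi-likelihood test of edgeR 4.0.16 in R 4.3.3, scaled by TMM and filtered by filterByExpr, with robust dispersion and no covariate. P-values were adjusted by Benjamini-Hochberg over the 20388 genes that passed the filter, at a threshold of 0.05, and standard errors were taken from the F statistic. The common biological coefficient of variation was 10.5%. The test was tested on simulated data with known changes. Levels are counts scaled to library size with TMM factors (CPM), and levels of different genes are compared per kb of exon. Alternatives left out each library in turn, changed the scaling or the low-count filter, added a block for the replicate number or a covariate for Xist (log2 CPM), or used DESeq2 1.42.0, limma-voom or limma-trend (limma 3.58.1).

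The rule for named genes gave values in every library for each member past the threshold and for the most abundant member of each family, and named up to 6 partner genes by p in each direction. A gene that this rule gave is not reported here. The members, the list of partner genes and the marker lists were chosen with earlier results of these data known. Paralogue pairs, 3 of 4 promoter motifs and members outside the rule were chosen after their values were seen. Library pairs differed by 3.51 to 16.7 in chi-square per gene within groups and by 34.1 to 41.5 between them, over genes whose 2 counts summed to 50 or more, so none was a copy of another.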

Additional observations from a re-analysis of the deposited data

How the results depend on the processing

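Of the 24 members called, 24 were still called with DESeq2 size factors, with no filter on low counts, with the replicate number as a block and without Yy1 cKO 3, 23 with limma-voom, 19 by DESeq2 and 13 without either control; no member changed direction where a call was involved. A fit with a single control takes that control to vary as the Yy1 cKO libraries do. With each library left out in turn the counts ranged from 6 to 16 members higher and 7 to 17 lower, from 9 to 24 partner genes higher and 5 to 11 lower, and from 887 to 2990 genes higher and 1267 to 3127 lower over all genes tested. Scaling by library size alone gave 1432 higher genes and shifted the median of all genes by -0.08. The groups share the replicate numbers 1 and 2, but deviations of same-numbered libraries correlated at 0.04 and 0.02 only, so the numbers are not taken to pair the libraries. The replicate block gave 3486 genes, 16 members and 26 partner genes higher. Replicate number 3 occurs only in Yy1 cKO, so the block gives Yy1 cKO 3 a term of its own. The group difference then rests on the other libraries, and the block is close to a repeat of the fit without Yy1 cKO 3. The block called 10 members not called above, Cadm1 among them, and the fit without Yy1 cKO 3 called 9 such members. The causes of the other shifts were not tested. Depth limits Cbln2, Cbln4 and C1ql2: with the stricter filter of 1 CPM in 2 libraries these gave no value. Cbln2 also gave none by limma-trend, and C1ql2 none without Yy1 cKO 2 and without Yy1 cKO 3.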
